A study of Mus musculus with 8 samples.

Results

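The nuclear genes of oxidative phosphorylation encode most subunits of the complexes of the mitochondrial inner membrane. Probes were taken whose platform symbol starts with Nduf, Uqcr, Cox4 to Cox8 or Atp5, or is Sdha to Sdhd, Cyc1 or Cycs, leaving out symbols that end in -ps, with the brightest probe standing for each gene. This gave 87 genes, measured by 136 probes, among 25150 genes and unnamed probes tested on the array. Of the 87 genes, 80 were counted as subunits: 35 of complex I, 4 of complex II, 9 of complex III including Cyc1, 19 of complex IV and 13 of complex V. Ndufa4 was counted with complex IV, where its product is now placed. Cox7a2l was also counted there, although its product is a relative of a subunit. The same symbols also brought in 4 complex I assembly factors (Ndufaf1 to Ndufaf4) and 3 genes whose products are no subunits, namely Emc8 (platform symbol Cox4nb, a part of the ER membrane complex), Dmac2 (platform symbol Atp5sl, a protein of complex I assembly) and Dmac2l (platform symbol Atp5s). No probe used here carried the symbols Cycs, Atp5g1, Atp5g2 or Ndufa4l2.

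Complexes I and II pass electrons from NADH and from succinate to ubiquinone, complex III passes them on to cytochrome c, and complex IV passes them to oxygen. Complexes I, III and IV pump protons across the inner membrane, and complex V, the ATP synthase, uses that gradient to make ATP. Pluripotent cells in culture are known to rely strongly on glycolysis, and mouse ES cells of the naive state also respire.

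The arrays compared clonal lines of mouse embryonic stem (ES) cells carrying a stable knockdown of Taf5 (Taf5-kd) with lines carrying a control knockdown (control-kd). Its product belongs to TFIID, a general transcription factor that recognises core promoters. All lines came from IB10, a subclone of the E14 ES cell line, by transduction with a pLKO-puro lentivirus expressing an shRNA. Puromycin-resistant colonies were picked, and the cells were grown on gelatin in serum with LIF. There were 2 Taf5-kd and 2 control-kd lines, each 1 clone, each on 2 dual-colour arrays with opposite dyes against a pool of parental ES cell RNA. Every value is therefore a log2 ratio to that parental pool, which carries neither the shRNA nor the selection, and values of single arrays have the mean dye effect taken out. Since both arrays of a line hold cultures of the same clone, the clone was the unit of the test between groups (n = 2 lines per group). A gene passed the test where limma's adjusted p, over all 25150 features, was under 0.05.

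The sample channel had a median signal of 123 to 186 intensity units per array over a median background of 35 to 39.5. All 87 genes passed the filter on dim probes, and 85 of them were above background on all 8 arrays. Taf5 itself, on chromosome 19, stood at 0.48 (line 1) and 0.14 (line 2) in control-kd and at -1.08 and -1.11 in Taf5-kd, a difference of -1.40 ± 0.13 (log2, SE; limma, adjusted p = 0.0267). All 9 ES cell markers listed for the check were above background on all 8 arrays. In Taf5-kd 2 of these 9 passed as lower, Klf4 (-1.21 ± 0.10) and Esrrb (-1.56 ± 0.16), and the median of the list was -0.54. Of 6 trophoblast markers 2 passed as higher, Cdx2 (2.61 ± 0.31) and Gata3 (0.32 ± 0.04), and of 6 primitive endoderm markers and 6 fibroblast markers 0 passed. The smallest p of these last lists belonged to Afp (0.06 ± 0.05) and Col1a1 (1.74 ± 0.51, adjusted p = 0.137). Control-kd line 2 stood apart in the primitive endoderm markers: Gata6 was at 2.48 (-0.0064 in control-kd line 1), Dab2 at 1.29 (-0.50), Foxa2 at 0.71 (0.026) and Sox17 at 0.50 (-0.033), and Pdgfra of the fibroblast list was at 2.09 (-0.010). Between the control-kd lines 4 of the 6 primitive endoderm markers passed limma's test, all higher in line 2. The summed signal of that list ran from 534 to 2443 units on the control-kd arrays and from 653 to 1150 on the Taf5-kd arrays. The summed signal of the ES markers ran from 95275 to 191325 units on the control-kd arrays and from 61090 to 182722 on the Taf5-kd arrays, and that of the trophoblast markers from 641 to 1289 and from 1345 to 3076. The part of these cell state markers in the differences below was not tested. With control-kd line 2 left out, the 7 genes named below as past the test kept their direction, with differences of 0.86 for Ndufb7, -0.60 for Cox7a2l, -0.40 for Cox6c, -0.36 for Atp5l, -0.33 for Ndufb2, -0.33 for Cox8a and -0.28 for Sdhc. None of them passed in that fit of 3 line values (limma, adjusted p from 0.0774 to 0.138).

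Since TFIID acts at the core promoter, the stretches just before the start sites of 5 of the 7 genes that passed between Taf5-kd and control-kd are shown first. The promoters are those of RefSeq on build GRCm38.p6, taking the first start listed for a gene, and each line gives the 150 bases before the start, 5′ to 3′. Capitals mark matches to any of 5 motifs searched on both strands: GCGCA and GCGC with 1 base between (NRF1), CCGGAAG (ETS factors such as GABP), AAGATGGC (YY1), TCAAGGTCA (ERR) and TATAAA (the TATA box).
Ndufb7: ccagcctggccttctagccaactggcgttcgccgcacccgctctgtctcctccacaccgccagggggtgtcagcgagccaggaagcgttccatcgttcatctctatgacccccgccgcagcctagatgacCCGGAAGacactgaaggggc
Ndufb2: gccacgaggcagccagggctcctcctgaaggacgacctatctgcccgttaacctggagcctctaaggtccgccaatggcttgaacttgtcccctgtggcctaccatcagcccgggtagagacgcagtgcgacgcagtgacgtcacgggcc
Cox7a2l: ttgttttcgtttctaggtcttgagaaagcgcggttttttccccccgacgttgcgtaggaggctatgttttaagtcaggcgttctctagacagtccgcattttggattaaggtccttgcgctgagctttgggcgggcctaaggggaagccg
Cox8a: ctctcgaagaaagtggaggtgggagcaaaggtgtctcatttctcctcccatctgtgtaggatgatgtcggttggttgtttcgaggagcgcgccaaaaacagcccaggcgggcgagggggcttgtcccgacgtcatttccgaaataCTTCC
Atp5l: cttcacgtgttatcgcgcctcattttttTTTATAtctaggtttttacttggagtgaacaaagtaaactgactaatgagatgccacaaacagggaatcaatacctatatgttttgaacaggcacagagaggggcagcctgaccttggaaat

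These stretches lie at chr8:83566608-83566757 on the plus strand for Ndufb7, chr6:39592415-39592564 on the plus strand for Ndufb2, chr17:83514334-83514483 on the minus strand for Cox7a2l, chr19:7217617-7217766 on the minus strand for Cox8a and chr9:44920743-44920892 on the minus strand for Atp5l. Ndufb7 carries CCGGAAG on the forward strand from base -20 to -14. Cox8a carries it on the reverse strand from base -5 to the second base after the start, so that 5 of its bases are printed. Atp5l carries TATAAA on the reverse strand from base -122 to -117, a match of letters whose use as a TATA box was not tested. Outside the printed bases there were further matches, all on the reverse strand. Atp5l carries CCGGAAG from base -212 to -206 and from 25 to 31 after the start. Cox8a carries CCGGAAG from 33 to 39 after the start, and Ndufb7 carries TATAAA from base -235 to -230. None of the 5 motifs was found in the printed stretches of Ndufb2 and Cox7a2l, which says only that these letters are not there.

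Over the whole 300-base windows (250 before to 50 after the start), which were found for 72 of the 87 genes, CCGGAAG occurred in 16 promoters (22.2%), against 9.12% of 27025 mouse promoters. The NRF1 motif occurred in 16 (22.2%, against 4.78% of all) and AAGATGGC in 10 (13.9%, against 2.88%). TCAAGGTCA occurred in 2 (2.78%, against 0.407%). TATAAA was found in 7 (9.72%), against 14.2% of all promoters. Among the 14 complex IV promoters, NRF1 letters were found in 1, ETS letters in 3 and YY1 letters in 0, and among the other 58 in 15, 13 and 10. These matches describe the letters of the windows and were not tested against the expression values.

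Between Taf5-kd and control-kd the oxidative phosphorylation genes did not move as 1 block. Of the 87 genes 1 rose (Ndufb7) and 6 fell (Cox7a2l, Cox6c, Atp5l, Ndufb2, Cox8a and Sdhc), together 8.05%. Among all 25150 features 7.75% passed, 4.5% as higher and 3.25% as lower, so the share of the members lies near the background. The median difference over the 87 genes was -0.014 on the log2 scale, with 41 values above 0 and 46 below, beside -0.0063 over all features. Single differences were nevertheless wider than on the array as a whole: the median absolute difference was 0.19 in the members and 0.082 over all features. The members are also much brighter, with a median log2 intensity of 11.98 against 7.94, and the part of brightness in the wider differences was not tested. The 4 Taf5-kd and the 4 control-kd arrays did not overlap for 42 members (48.3%, 20 higher and 22 lower), and for 36.2% of all features (18.1% in each direction). When all 8 arrays were fitted, with a dye term and the line as a random block, 14 members passed as higher and 18 as lower (36.8%). Of all features 22.6% passed in that fit (12.4% higher and 10.2% lower). It uses the same line correlation for all features and can pass many unchanged genes where clones differ, so its counts may be too high.

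**Figure D1:**
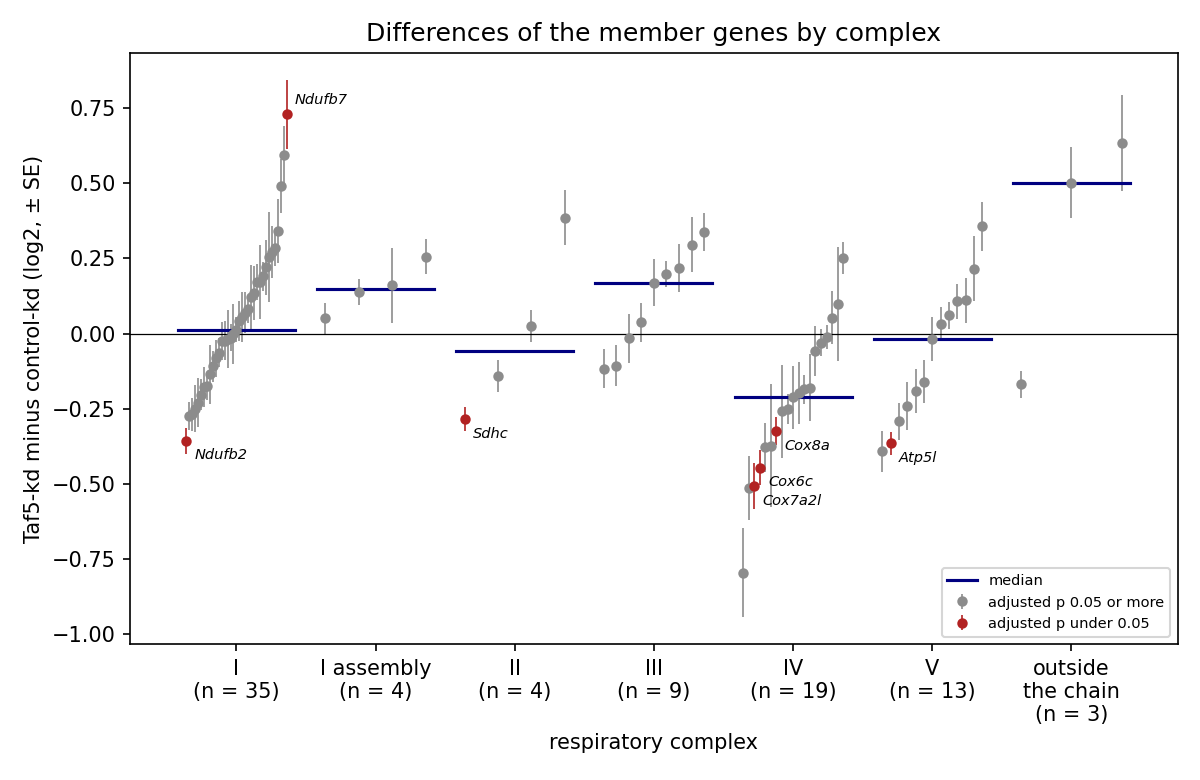
Log2 difference between Taf5-kd and control-kd (y axis, Taf5-kd minus control-kd, ± SE, n = 2 lines per group) for each of the 87 genes, grouped by complex on the x axis; Cox7b2 of complex IV was above background on no Taf5-kd array. Red points passed limma's test at an adjusted p under 0.05, grey points did not, and a blue bar marks the median of a group. Of the 19 complex IV genes 16 lie below 0. Without the 7 forms known mainly from muscle, lung or testis, 9 of 12 do.

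Complex I had a median difference of 0.013 (-0.063 with arrays centred on their medians in place of loess), with 18 of 35 genes above 0 and 17 below. In it 1 gene passed as higher and 1 as lower, beside 4.5% and 3.25% of all features. Without overlap were 8 genes in each direction, beside 18.1% of all features in each direction. Ndufb7, an accessory subunit of the membrane arm (chromosome 8, 83566758 to 83571623 in GRCm38.p6), stood at -0.58 and -0.53 on the arrays of control-kd line 1 and at -0.31 and -0.28 on those of line 2. In Taf5-kd it stood at 0.39 and 0.37 in line 1 and at 0.26 and 0.20 in line 2. All 4 Taf5-kd arrays were thus above the parental level and all 4 control-kd arrays below it. The difference was 0.73 ± 0.11 (SE), a 1.66-fold rise (limma, adjusted p = 0.0484).

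Ndufb2, another accessory subunit of the membrane arm (chromosome 6, 39592565 to 39599843), moved the other way. It stood at 0.10, 0.06, 0.09 and 0.17 on the control-kd arrays and at -0.28, -0.18, -0.20 and -0.34 on the Taf5-kd arrays, so the groups lay on opposite sides of the parental level. The difference was -0.36 ± 0.04, a 1.28-fold fall (limma, adjusted p = 0.0349). A much dimmer probe of Ndufb2 (mean log2 intensity 6.67, against 11.11) gave -0.03.

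Ndufc2, of the membrane arm, and Ndufv2, a core iron-sulphur subunit of the arm that oxidises NADH, had the largest differences of complex I after Ndufb7 and did not pass. Ndufc2 stood at -0.47, -0.50, -0.60 and -0.59 in control-kd and at 0.13, 0.21, -0.03 and -0.09 in Taf5-kd, a difference of 0.59 ± 0.10 (limma, adjusted p = 0.0509). Ndufv2 stood at -0.16, -0.12, -0.16 and -0.11 in control-kd and at 0.48, 0.45, 0.27 and 0.21 in Taf5-kd, a difference of 0.49 ± 0.09 (limma, adjusted p = 0.0607). Neither gene's arrays overlapped between the groups, and in both the Taf5-kd line 1 arrays were the highest. Of the subunits that bind NADH and carry its electrons, Ndufv1 (-0.28 ± 0.05, adjusted p = 0.0535) and Ndufs1 (-0.27 ± 0.06) differed downward where Ndufv2 differed upward, and none of the 3 passed. The 6 measured core subunits had a median difference of -0.00063 and the 29 accessory subunits one of 0.041.

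The 4 complex I assembly factors all had positive differences, with a median of 0.15, and 0 of them passed. Ndufaf2 had 0.26 ± 0.06, Ndufaf4 0.16 ± 0.12 and Ndufaf1 0.14 ± 0.04. The arrays of the groups did not overlap for Ndufaf2 and Ndufaf1, as was so in the upward direction for 18.1% of all features. Of the 3 genes that encode no subunit, Dmac2l gave 0.63 ± 0.16, Emc8 0.50 ± 0.12 and Dmac2 -0.17 ± 0.04, and none passed on the brightest probe.

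In complex II, which is also succinate dehydrogenase of the citric acid cycle, the subunits differed from one another. Sdhc, a membrane anchor (chromosome 1, 171129157 to 171150640), stood at 0.36, 0.41, 0.41 and 0.40 in control-kd and at 0.11, 0.08, 0.12 and 0.13 in Taf5-kd. All 8 arrays were above the parental level, and the control-kd arrays were the higher ones. The difference was -0.29 ± 0.04, a 1.22-fold fall (limma, adjusted p = 0.0403). A much dimmer Sdhc probe (mean log2 intensity 6.41, against 10.75) gave 0.02. Sdhb, the iron-sulphur subunit, differed the other way: it stood at 0.14, 0.12, -0.10 and -0.10 in control-kd and at 0.44, 0.40, 0.34 and 0.41 in Taf5-kd (0.39 ± 0.09, limma, adjusted p = 0.0947). Sdhd, the other anchor, gave -0.14 ± 0.05 and the flavoprotein Sdha 0.02 ± 0.05, and neither passed.

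Complex III had 6 of 9 genes above 0 (5 with median-centred arrays) and a median of 0.17, with 0 genes past the test in either direction. At an unadjusted p under 0.05 (limma), 3 were higher and 0 lower, beside 3527 higher and 3185 lower among all 25150 features. The median over its genes was -0.011 and -0.014 in control-kd lines 1 and 2, beside 0.072 and 0.11 in Taf5-kd. Uqcr10, a small subunit encoded on chromosome 11, stood at -0.19, -0.13, -0.30 and -0.30 in control-kd and at 0.08, 0.14, 0.17 and 0.05 in Taf5-kd, a difference of 0.34 ± 0.06 (limma, adjusted p = 0.0632). Uqcrfs1, the Rieske iron-sulphur protein, gave 0.30 ± 0.09, and Uqcrq, a small subunit on chromosome 11, gave 0.22 ± 0.08. Cyc1, the cytochrome that hands electrons to cytochrome c, gave 0.20 ± 0.04. The groups did not overlap for 5 of the 9 genes, all higher in Taf5-kd (Uqcr10, Uqcrfs1, Uqcrq, Cyc1 and Uqcrc2). Of all features 18.1% were without overlap as higher. With the features of chromosomes 8 and 11 left out the complex III median was 0.037, and with arrays centred on their medians in place of loess it was 0.047.

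Complex IV had the lowest median of the complexes, -0.21, with 16 of 19 genes below 0, a count that was the same under all 4 scalings of the arrays that were tried. Of the 19 genes 3 fell and 0 rose, beside 3.25% of all features lower and 4.5% higher. Among the 3 is Cox7a2l, whose product is a relative of a subunit. Of the 19 genes 8 were without overlap as lower and 1 as higher, beside 18.1% of all features in each direction. With median-centred arrays the median was -0.38, and the 3 genes did not pass. Cox7b2, counted among the 16, was above background on no Taf5-kd array, and without it 15 of 18 genes lay below 0, with a median of -0.21. All 7 forms known mainly from muscle, lung or testis were among the 16, with a median log2 intensity of 7.49. Of the other 12 genes 9 lay below 0, with a median of -0.21. By line the median over all 19 genes was -0.056 and -0.066 in control-kd, beside -0.21 and -0.39 in Taf5-kd. On single arrays it ran from -0.098 to -0.028 in control-kd and from -0.44 to -0.18 in Taf5-kd, without overlap. These differences come from genes whose values are described one by one, and no test was made of the complex as a whole.

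**Figure D2:**
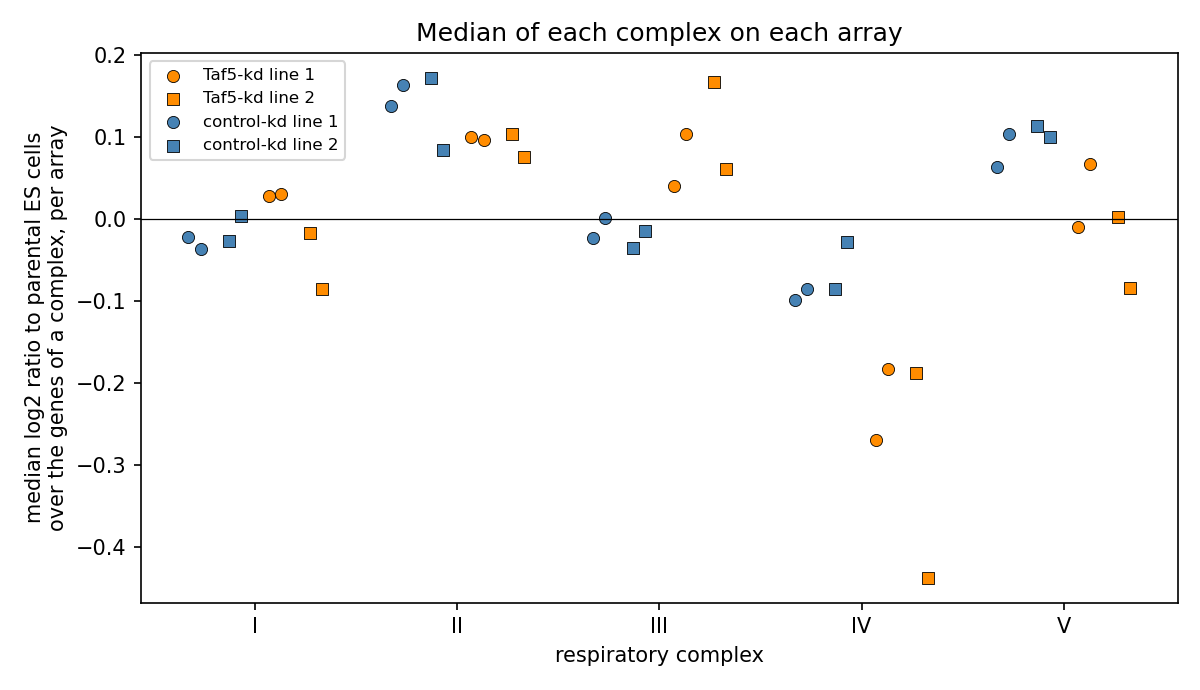
Median log2 ratio to parental ES cells over the genes of each complex (y axis), for complexes I to V (x axis), with 1 point per array after removal of the dye effect. Blue marks control-kd and orange Taf5-kd, circles line 1 and squares line 2; for complex IV all 4 Taf5-kd arrays lie below all 4 control-kd arrays, and for complex III all 4 lie above.

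Cox7a2l encodes a relative of a complex IV subunit that joins complexes III and IV into supercomplexes (chromosome 17, 83501917 to 83514333). It stood at 0.57 and 0.50 in control-kd line 1, at 0.38 and 0.32 in line 2, at -0.07 and -0.08 in Taf5-kd line 1 and at -0.13 and 0.01 in line 2. The control-kd lines were thus above the parental level and the Taf5-kd lines near it. The difference was -0.51 ± 0.08, a 1.42-fold fall (limma, adjusted p = 0.0444).

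Cox6c, a small nuclear-encoded subunit (chromosome 15, 35931976 to 35938246), stood at -0.18, -0.30, -0.20 and -0.10 in control-kd and at -0.68, -0.53, -0.61 and -0.74 in Taf5-kd. All 8 arrays were below the parental level and the Taf5-kd arrays were the lower ones. The difference was -0.45 ± 0.06, a 1.36-fold fall (limma, adjusted p = 0.0369). Cox8a, the broadly expressed form of subunit VIII (chromosome 19, 7215158 to 7217616), stood at -0.11, -0.09, -0.12 and -0.10 in control-kd and at -0.44, -0.35, -0.40 and -0.54 in Taf5-kd. Its control-kd arrays lay within a narrow range just below the parental level. The difference was -0.33 ± 0.05, a 1.25-fold fall (limma, adjusted p = 0.0419).

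Cox7c, a small subunit, had the largest difference of all 87 genes and did not pass. It stood at -0.38, -0.36, -0.34 and -0.21 in control-kd, at -1.31 and -1.31 in Taf5-kd line 1 and at -0.84 and -1.003 in line 2. Each Taf5-kd array was below each control-kd array, and the Taf5-kd clones differed from each other by -0.39 ± 0.07. The difference between the groups was -0.80 ± 0.15 (limma, adjusted p = 0.0621). A much dimmer Cox7c probe (mean log2 intensity 8.41, against 14.31) gave -0.09. Cox4i1, the broadly expressed form of subunit IV and encoded on chromosome 8, was the only complex IV gene without overlap in the upward direction. It stood at -0.77, -0.69, -0.66 and -0.65 in control-kd and at -0.42, -0.38, -0.42 and -0.54 in Taf5-kd (0.25 ± 0.05, limma, adjusted p = 0.0801), so that it was below the parental level on all 8 arrays.

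**Figure D3:**
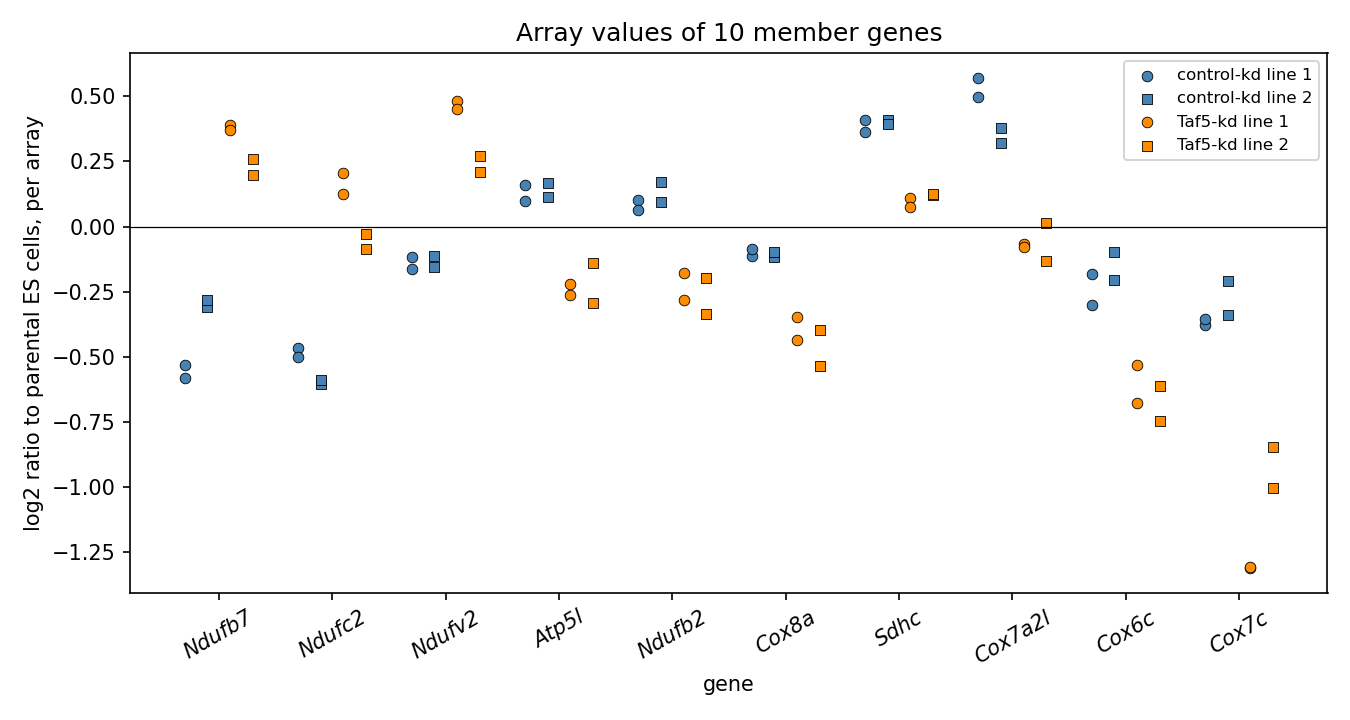
Log2 ratio to parental ES cells on each array after removal of the dye effect (y axis) for 10 genes (x axis), in control-kd (blue) and Taf5-kd (orange), with circles for line 1 and squares for line 2 of a group. Shown are the 7 genes that passed the test together with Ndufc2, Ndufv2 and Cox7c, which had large differences. The groups do not overlap for any of the 10 genes, which follows largely from that choice. Of all features 36.2% were without overlap. The distance between the lines of a group differs from gene to gene and is widest for Cox7c in Taf5-kd.

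Several complex IV subunits exist as broadly expressed forms and as forms known mainly from muscle, lung or testis. The 7 tissue forms on the array (Cox4i2, Cox6a2, Cox6b2, Cox7a1, Cox7b2, Cox8b and Cox8c) had a median log2 intensity of 7.49 and the other 12 genes one of 13.8, on probes that differ in sequence. The differences of the tissue forms ran from -0.51 to -0.01, and 0 of them passed; the other 12 had a median of -0.21, and 3 of them passed as lower. The pair Cox4i1 and Cox4i2 gave 0.25 and -0.01, Cox6a1 and Cox6a2 gave -0.19 and -0.37, and Cox6b1 and Cox6b2 gave -0.21 and -0.38. The Cox6a2 value rests on 1 Taf5-kd array at -1.07, where the others lay from -0.19 to 0.08. Cox7a1 gave -0.06 and Cox7a2 0.05, beside -0.51 for Cox7a2l. Cox7b gave -0.25 ± 0.05 (adjusted p = 0.0693), and Cox7b2 was above background in the sample channel of 2 control-kd arrays and 0 Taf5-kd arrays, so its plotted difference is not read as a measured one. Cox8a fell by 0.33 on the log2 scale, Cox8b gave -0.03 and Cox8c -0.51 ± 0.11 (adjusted p = 0.0759). Ndufa4 gave -0.18 ± 0.11, and of the Atp5g forms of the proton-carrying c subunit Atp5g3 gave 0.22 ± 0.11.

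Complex V had a median difference of -0.018 (-0.20 with median-centred arrays), with 6 of 13 genes above 0. In it 1 gene passed as lower, and 4 genes were without overlap as lower against 1 as higher. Of all features 3.25% passed as lower, and 18.1% were without overlap in each direction. Atp5l, subunit g of the membrane part (chromosome 9, 44913248 to 44920742), stood at 0.10, 0.16, 0.11 and 0.17 in control-kd and at -0.26, -0.22, -0.14 and -0.29 in Taf5-kd. The groups lay on opposite sides of the parental level. The difference was -0.36 ± 0.04, a 1.29-fold fall (limma, adjusted p = 0.0298). Atp5e, the epsilon subunit of the central stalk, gave -0.39 ± 0.07 (adjusted p = 0.0557). Atp5h, a subunit of the peripheral stalk encoded on chromosome 11, gave 0.36 ± 0.08 (adjusted p = 0.0869). The catalytic part gave -0.29 ± 0.06 for the alpha subunit Atp5a1 and -0.24 ± 0.08 for the beta subunit Atp5b. Neither passed, and both were without overlap as lower. These values depend on the processing: the authors' deposited comparison gives -0.06 for Atp5a1 and 0.07 for Atp5b. Dimmer probes gave -0.08 and -0.18 for Atp5a1 and -0.14, -0.16 and -0.32 for Atp5b, and none passed. The sample signal of the brightest probe reached 58530 units for Atp5a1 and 62954 for Atp5b. The highest Cy5 spot signals of the arrays were 64868 to 65291, so these ratios may be limited by the top of the scale, which was not tested. Neither gene was among the members recomputed under the alternatives below.

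The position of the genes in the genome went with the direction of the upward differences. The 7 members on chromosomes 8 (Ndufa13, Ndufb7, Cox4i1 and Emc8) and 11 (Uqcr10, Uqcrq and Atp5h) all had positive differences without overlap, with a median of 0.34, and 1 of them passed. Of all 2335 features on these chromosomes, 45.7% were without overlap as higher and 20.1% passed as higher (1.07% as lower), with a median of 0.11. The 80 members on other chromosomes had a median of -0.021, with 0 higher and 6 lower past the test, and 13 without overlap as higher and 22 as lower. Of the 22815 other features, 2.91% passed as higher and 3.47% as lower, and 15.3% were without overlap as higher and 19.1% as lower. Bright features of chromosome 8 as a whole had medians of -0.14 and -0.13 in control-kd and of 0.14 in either Taf5-kd line. For chromosome 11 the medians were -0.14 and -0.13 in control-kd and 0.076 and 0.088 in Taf5-kd, and over the remaining chromosomes they ran from -0.043 to -0.011. When the test was run without the features of chromosomes 8 and 11, 0 members were higher and 3 lower. Whether the copy number of these chromosomes differs between the clones was not tested.

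Of the 34 members with several probes, 10 had a probe whose difference had the opposite sign from that of the brightest: Atp5c1, Atp5g3, Atp5pb, Ndufa3, Ndufa7, Ndufaf4, Ndufv2, Sdha, Sdhc and Uqcrh. The opposite values ran from small ones, such as -0.01 for Ndufa7, to -0.26 for Atp5c1, -0.19 for Atp5g3 and -0.19 for Ndufaf4, and none of them passed. Several came from dim probes, with a mean log2 intensity of 6.57 for Atp5g3 and 6.93 for Ndufaf4, beside a median of 7.94 over all features. Those of Ndufa7 (10.69) and Uqcrh (12.80) were bright. In 3 genes a dimmer probe of the same sign passed while the brightest did not: -0.54 for Ndufv3 (brightest probe -0.02), 0.46 for Emc8 (0.50) and 0.51 for Dmac2l (0.63). Many of these genes have processed pseudogenes of near-identical sequence in the mouse genome, and the array cannot tell their transcripts apart where a probe matches both.

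Against the parental pool the control-kd lines already differed. In control-kd 14 members were higher (16.1%, against 8.38% of all features) and 12 lower (13.8%, against 13%). The largest of the higher ones were Cox7a2l (0.44 ± 0.05), Sdhc (0.39 ± 0.03), Ndufv1 (0.34 ± 0.03), Ndufb10 (0.31 ± 0.03) and Atp5e (0.30 ± 0.05). The largest of the lower ones were Cox4i1 (-0.69 ± 0.04), Ndufc2 (-0.54 ± 0.07), Ndufa13 (-0.46 ± 0.06), Ndufb7 (-0.42 ± 0.08) and Emc8 (-0.41 ± 0.08). All of these but Ndufc2 lie on chromosome 8. Of the 12 lower members 5 lie on chromosomes 8 and 11, where 552 of all 2335 features were lower in control-kd. These values rest on limma's fit of the lines against 0, which leaves out the spread of the parental cells themselves.

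In Taf5-kd 11 members were higher than the parental pool (12.6%, against 7.74% of all features) and 13 lower (14.9%, against 10.7%), and 7 of these 13 were complex IV genes. The largest of the lower ones were Cox7c (-1.12 ± 0.10), Cox6c (-0.64 ± 0.04), Cox6a1 (-0.57 ± 0.03), Ndufa1 (-0.46 ± 0.07) and Cox4i1 (-0.44 ± 0.04). The largest of the higher ones were Ndufb10 (0.50 ± 0.03), Ndufb5 (0.45 ± 0.04), Sdhb (0.40 ± 0.06), Uqcrfs1 (0.40 ± 0.06) and Ndufa8 (0.38 ± 0.08). The comparisons with the parental pool share that pool, so the likeness of their lists was not tested. Cox6a1, a broadly expressed subunit, stood at -0.38 ± 0.03 in control-kd and at -0.57 ± 0.03 in Taf5-kd and passed in both, while Ndufc2 passed in control-kd and stood at 0.05 in Taf5-kd, where it did not pass.

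**Figure D4:**
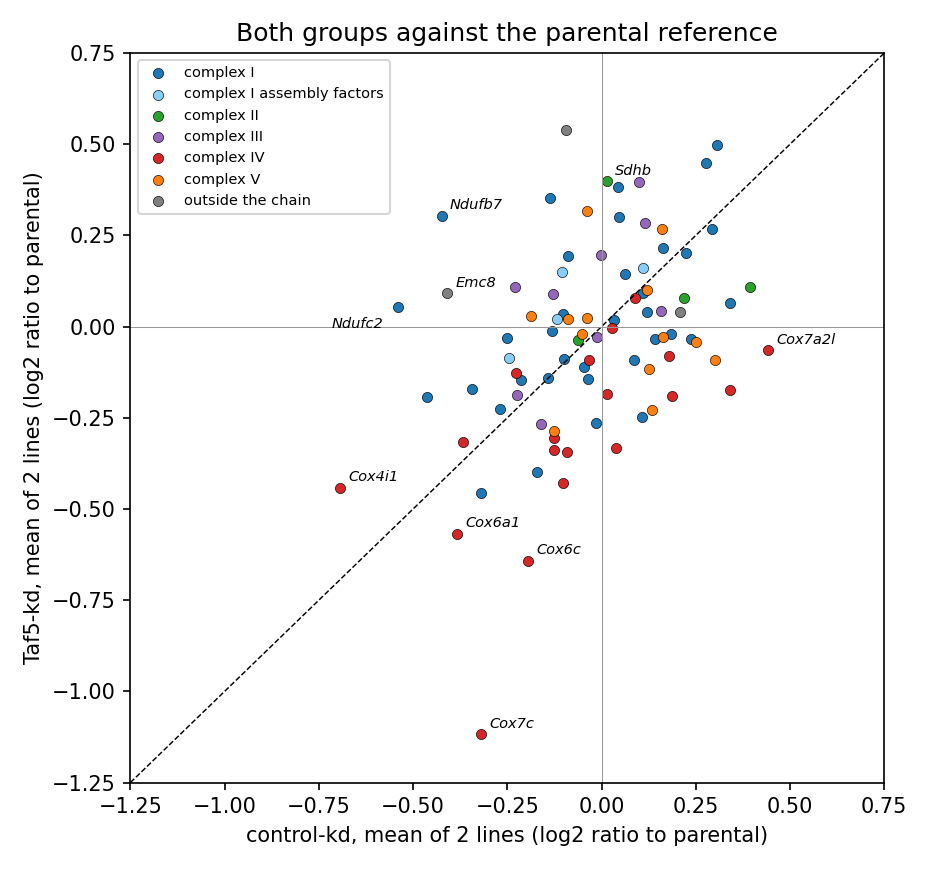
Mean log2 ratio to the parental pool over the 2 control-kd lines (x axis) and over the 2 Taf5-kd lines (y axis) for the 87 genes, coloured by complex. The dashed line marks equal values; genes above it, such as Ndufb7 and Ndufc2, were higher in Taf5-kd than in control-kd, and most complex IV genes (red) lie below it.

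The clones of a group also differed among the members. Between the Taf5-kd lines 10 members passed (11.5%, against 13.6% of all features), 8 of them higher in line 1 (9.49% of all features) and 2 lower (4.06%), and 7 of these 8 were complex I genes. The largest of the higher ones were Ndufs4 (0.28 ± 0.07), Ndufv2 (0.23 ± 0.05), Ndufc2 (0.22 ± 0.05), Ndufb8 (0.22 ± 0.06) and Ndufa13 (0.21 ± 0.06), while Cox5b (-0.44 ± 0.06) and Cox7c (-0.39 ± 0.07) were lower in line 1. Between the control-kd lines 12 members passed (13.8%, against 13.4% of all features), with Dmac2l (0.40 ± 0.06), Sdhb (0.23 ± 0.05) and Cox6b1 (0.20 ± 0.05) higher in line 1 (6.66% of all features). Of the 9 lower in line 1 (6.76% of all features) the largest were Cox7b2 (-0.41 ± 0.05), Ndufab1 (-0.38 ± 0.08), Emc8 (-0.31 ± 0.05), Ndufaf4 (-0.29 ± 0.05) and Ndufb9 (-0.28 ± 0.07). The Cox7b2 value is limited, since this gene was above background in the sample channel of only 2 control-kd arrays. These tests take the 2 cultures of a clone as replicates. Over the 87 genes, correlations were 0.92 to 0.96 between the arrays of 1 clone, 0.76 to 0.90 between clones of the same kind and 0.16 to 0.47 between a Taf5-kd and a control-kd array, as a description over genes.

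The authors' deposited table gives its own log2 difference and p-value for Taf5-kd against control-kd. By the authors' deposited table, 12 of the 87 genes have a p under 0.05, 4 higher and 8 lower, and 60 have a p of 1, while 10.3% of all probes have a p under 0.05. Its sign was the same as here for 81 of the 87 genes, and Sdha and Atp5b are among the 6 others. Of the 7 genes that passed here, the authors' deposited table has Sdhc at a p of 0.237 and Cox8a at 0.743, and the other 5 under 0.05. It gives Cox7c -0.72 with a p of 0.0004 and Ndufv2 0.43 with a p of 0.008.

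Other genes of mitochondrial energy metabolism were read from lists, whose counts stand beside 4.5% of all features higher and 3.25% lower, and beside 20.1% higher on chromosomes 8 and 11. Of 18 measured citric acid cycle and pyruvate dehydrogenase genes 3 rose, led by Fh1 (0.60 ± 0.09) and Dld (0.55 ± 0.04), and 2 fell, among them Pdha1 (-0.79 ± 0.06), the alpha subunit of pyruvate dehydrogenase. The median of that list was 0.020. Of 36 further assembly factors 7 rose, led by Ttc19 (0.89 ± 0.12), Coa6 (0.79 ± 0.09) and Coa3 (0.66 ± 0.04), and 1 fell, Sdhaf1, with a median of 0.075. Coa6 and Coa3 act in complex IV assembly and Ttc19 in that of complex III, and these 3 genes lie on chromosomes 8 and 11, as do 4 of the 7 that rose.

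Of 77 mitochondrial ribosomal protein genes 10 rose and 0 fell, with a median of 0.055. The largest were Mrpl22 (0.71 ± 0.07), Mrpl38 (0.67 ± 0.05) and Mrpl55 (0.65 ± 0.05), all on chromosome 11, and 8 of the 10 lie on chromosomes 8 or 11. At an unadjusted p under 0.05 (limma), 21 of the 77 were higher and 7 lower, beside 3527 higher and 3185 lower among all 25150 features. Of 16 carriers, porins and import genes 3 rose, all on chromosome 8: Slc25a4, the ADP/ATP carrier known best from muscle (1.38 ± 0.16), Vdac3 (0.85 ± 0.07) and Timm44 (0.43 ± 0.04). The median of that list was 0.13.

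Of 21 regulators of these genes and of mitochondrial transcription 1 rose, Tefm (0.84 ± 0.10, chromosome 11), which helps the mitochondrial RNA polymerase elongate, and 1 fell. The latter was Gabpa, the DNA-binding subunit of GABP (-0.56 ± 0.07, limma, adjusted p = 0.0379), which stood at 0.19 and 0.04 in control-kd and at -0.48 and -0.40 in Taf5-kd. The median of the list was 0.020. Of the genes encoded by mitochondrial DNA, 1 was measured here, under the platform symbol mt-Atp6, a symbol that RefSeq also lists for the nuclear pseudogene Gm10925. It stood at -0.68 and -0.71 in control-kd and at -0.64 and -0.62 in Taf5-kd, below the parental pool in every line. The difference between the groups was 0.06 ± 0.04 and did not pass. The signal of this probe above background reached 63534 units in control-kd and 64422 in Taf5-kd. The highest Cy5 spot signals of the arrays were 64868 to 65291, so its ratios may be limited by the top of the scale. That limit was not tested.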

How the data were processed

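Expression was measured on 8 dual-colour arrays, 4 per group, of 2 Taf5-kd and 2 control-kd ES cell lines against parental RNA. Line and dye of each array come from the labels. Per the file headers, the scanner tables hold the intensity of 45220 spots in each channel with its local background. The authors' deposited matrix holds log2 ratios, and their deposited comparison table holds a log2 difference and a p-value per probe; no label or header used here states how they were made.

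From the scanner intensities, background was corrected by normexp (offset 50) and arrays normalized by loess over 41174 mouse probes (limma 3.58.1, R 4.3.3), and ratios were turned to sample over reference. Probes exceeding background by 2 SDs on at least 4 of 8 arrays, in 1 channel or the other, were kept (40860), symbols were updated through the RefSeq gene table of GRCm38.p6, and the brightest probe stood for a gene (25150 features). Each line's value was the mean of its dye-swapped arrays. limma (lmFit and eBayes, two-sided, Benjamini-Hochberg) compared 2 lines with 2, and each group with 0. Clones were compared over arrays with a dye term. The script was tested on simulated data. Deviations of arrays from their line's mean correlated at 0.700 to 0.829 between same-numbered arrays of other lines. The number goes with the dye in every line, so a dye effect cannot be told apart from anything else that same-numbered arrays share. The fit of 8 arrays with a dye term and the line as a random block stands with the alternatives. The number of arrays limits the precision.

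The members, lists and tests were chosen with earlier results of these data known, among them the chromosome 8 and 11 values. Genes named are Taf5, all members past the test, the 3 largest differences per complex, isoform groups, members on chromosomes 8 and 11 or with disagreeing probes, up to 5 per direction in the other comparisons, and up to 3 per list. Ndufv1, Ndufs1, Cyc1, Sdha, Atp5a1 and Atp5b were named for their role after the values had been seen. Motifs were searched in Python 3.11.15 with pandas 2.3.3, and plots drawn with matplotlib 3.10.9.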

Additional observations from a re-analysis of the deposited data

Results flagged for a closer look

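Between the Taf5-kd clones, 10 members differed by limma's test over arrays (adjusted p under 0.05, line 1 minus line 2, log2). The values were -0.436 for Cox5b, -0.385 for Cox7c, 0.284 for Ndufs4, 0.226 for Ndufv2, 0.222 for Ndufc2, 0.219 for Ndufb8, 0.212 for Ndufa13, 0.193 for Uqcrc2, 0.190 for Ndufb11 and 0.175 for Ndufs6. Between the control-kd clones 12 members differed: Cox7b2 -0.411, Ndufab1 -0.384, Emc8 -0.315, Ndufaf4 -0.289, Ndufb9 -0.285, Cox5b -0.275, Ndufb7 -0.261, Ndufs5 -0.234 and Cox6b2 -0.198 were lower in line 1, and Dmac2l 0.403, Sdhb 0.229 and Cox6b1 0.204 were higher. Cox7b2 was above background in the sample channel of only 2 control-kd arrays, which limits its value. Cox5b is in both sets and was lower in line 1 in each. In a search for single arrays standing apart, 0 of 56 groups of 4 arrays passed Dixon's 95% critical value.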

How the results depend on the processing

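Single values were recomputed for 21 members, and none of these changed direction under the 20 or 21 alternatives run for it (20 for the 4 on chromosomes 8 and 11); the other members were not recomputed, and the authors' table has another sign for 6 of the 87. With arrays centred on their medians in place of loess, 106 features passed (48.1% of them higher, against 58.1%), 0 members were higher and 0 lower, and the medians were -0.10 for all members, -0.063, -0.16, 0.047, -0.38 and -0.20 for complexes I to V; against the parental pool 1 member was higher and 0 lower in control-kd and 0 and 0 in Taf5-kd, and 0 passed between clones. Complex III then had 5 genes above 0. With the replicate block (8 arrays, dye term, line as random block) 5673 features passed, 14 members higher and 18 lower (36.8%, against 22.6% of all features), with 20 lower in control-kd and 21 higher and 20 lower in Taf5-kd against the parental pool; with no replicate block 5594 passed, 9 members higher and 10 lower. Without the features of chromosomes 8 and 11, 913 passed, 0 members higher and 3 lower, complex III had a median of 0.037 and complex V of -0.089, and 6 members were lower in control-kd than in the parental pool. Members higher numbered 2 without background subtraction, 2 with probes above background on all 8 arrays, 3 with the authors' ratios (complex II median -0.092) and 3 with the mean over probes (complex III 0.14; 22 members lower in Taf5-kd than in the parental pool).

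Leaving out an array or a line in turn gave 0 to 2520 features, 0 to 6 members higher and 0 to 7 lower; without any 1 line, which leaves 3 line values, no member passed and at most 110 features did. The medians then ran from -0.037 to 0.028 for all members, -0.022 to 0.051 for complex I, -0.11 to -0.0097 for II, 0.073 to 0.21 for III, -0.29 to -0.13 for IV and -0.10 to 0.028 for V. Against the parental pool the ranges were 0 to 15 higher and 1 to 14 lower in control-kd and 0 to 16 and 0 to 18 in Taf5-kd. Without single arrays (numbered 1 and 2 for line 1, 3 and 4 for line 2) calls were lost as follows: Cox7a2l without control-kd 2 or 3 or Taf5-kd 3, Cox6c without control-kd 1 or Taf5-kd 1 or 3, Cox8a without control-kd 4 or Taf5-kd 1 or 3, Sdhc without control-kd 2 or 4 or Taf5-kd 3, Ndufb2 without Taf5-kd 1 or 3, Ndufb7 without control-kd 1 or 3 or Taf5-kd 3, and Atp5l without Taf5-kd 4. The adjusted p of these 7 genes without single arrays ran up to 0.0747. The mean over probes ended the calls of Ndufb2 (-0.20) and Sdhc (-0.13), whose dimmer probes had a mean log2 intensity of 6.67 and 6.41. The cause of these changes was not tested. Slide or scan date as a block was not run, since none was found in the files. Dim probes limit the tissue forms of complex IV.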
